A study of Brassica napus with 48 samples.

Results

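RCA, PRK and PORB are nuclear genes of photosynthesis, and each was read by a single probe set of an Arabidopsis array hybridised with RNA of oilseed rape (Brassica napus) flower buds. The probe sets were those that the array annotation gives to exactly 1 of these genes: 245061_at for RCA, 255720_at for PRK and 253871_at for PORB. They are 3 of 22746 probe sets without array controls, of which 13513 have 1 named gene, and all 3 were bright enough to enter the 14021 that were tested. Their mean signals lay at the 97.1, 98.5 and 97.0 percentiles of all probe sets.

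The study used J10 and J03, 2 lines that each segregate sterile and fertile plants through a dominant nuclear sterility gene, at 3 bud sizes. Sterile J10 plants carried MsMsrfrf and fertile J10 plants MsMsRfrf, so within J10 the difference was at Rf with MsMs in all plants. Sterile J03 plants carried Msmsrfrf and fertile J03 plants msmsrfrf, so within J03 the difference was at Ms and all plants lacked Rf. All plants grew in one field, and whole buds with stamens and pistils were taken below 1 mm (small, tetrad stage), from 1 to 3 mm (middle, uninucleate stage) and above 3 mm (large, trinucleate stage). Each of the 12 groups had 2 replicates, and each replicate was the mean of 2 hybridisations, which makes 24 replicates from 48 arrays. The labels allow several plants per replicate and do not name them, so p-values measure the spread between these replicates.

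RCA encodes Rubisco activase, which clears inhibitory sugar phosphates from the active site of Rubisco and so keeps carbon fixation running. PRK encodes phosphoribulokinase, which makes ribulose bisphosphate, the sugar that Rubisco carboxylates. PORB encodes protochlorophyllide oxidoreductase B, the light-driven step of chlorophyll synthesis that turns protochlorophyllide into chlorophyllide. These roles are known from Arabidopsis and other plants. In a closed bud, green tissue is mostly in the sepals, with some in the pistil wall and young anthers.

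A signal depends on how well rapeseed RNA binds probes designed for Arabidopsis, and a probe set can bind several rapeseed copies of a gene. Between J10 and J03, a different transcript level and a different match to the probes therefore cannot be told apart. At the same fertility the lines also differed at Ms, and in fertile buds at Rf. These genotypes cannot be told apart from the rest of the line. In RNA of whole buds, fewer green cells and less RNA per green cell cannot be told apart either. Signals are compared here between samples for 1 probe set and never between genes. The lists of sepal and petal, petal and stamen, and pistil markers had no member named in the annotation, so the organs in a bud could not be checked against them. Of the anther markers, A9 of the tapetum, which lines and nourishes the pollen sac, was read in every group, from a mean signal of 663 in sterile J10 small buds to 6688 in fertile J10 middle buds.

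The mean RCA signal was lower in J10 than in J03 in all 6 pairs of groups with the same fertility and size. In fertile J10 buds, replicates 1 and 2 gave RCA signals of 2361 and 1653 in small buds, 2344 and 1486 in middle buds, and 2779 and 1754 in large buds. In sterile J10 buds, the RCA signals were 1128 and 1032 in small, 1553 and 1549.8 in middle, and 1362 and 1760.35 in large buds. Replicate 1 was above replicate 2 in all 3 fertile J10 sizes, by 0.48 to 0.63 on the log2 scale, and the sterile J10 replicates lay closer together. In fertile J03 buds, the RCA signals were 2810.3 and 3188 in small, 2875 and 2212 in middle, and 3204 and 3319 in large buds. In sterile J03 buds, they were 2533 and 2532 in small, 3386 and 3692 in middle, and 3976 and 4259 in large buds. No sterile J10 replicate reached any sterile J03 replicate, whereas fertile J10 and fertile J03 overlapped.

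Ordered by mean RCA signal, all 6 J03 groups stood above all 6 J10 groups. The highest was sterile J03 large buds at 4117 ± 201 (SD, n = 2), followed by sterile J03 middle buds at 3539 ± 216 and fertile J03 large buds at 3262 ± 81.8. In each of these 3, both replicates lay above both replicates of the next group. Between the fourth group, fertile J03 small buds, and the eleventh, sterile J10 middle buds, no neighbours in the order were separated in this way. Sterile J10 small buds were lowest at 1080.2 ± 68.1 and lay below all other replicates.

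PRK put the 6 sterile groups in the same order as RCA, and the fertile groups in another. In fertile J10 buds, replicates 1 and 2 gave PRK signals of 3941 and 2596 in small, 4708 and 2323 in middle, and 4750.2 and 3536 in large buds. In sterile J10 buds, the PRK signals were 1748 and 1924 in small, 2508 and 2221 in middle, and 2412 and 2959 in large buds. Fertile J10 replicates differed from each other by up to 0.98 on the log2 scale, again with replicate 1 above replicate 2 at each size. In fertile J03 buds, the PRK signals were 3417 and 4229.95 in small, 3411 and 3690.3 in middle, and 4425 and 4583 in large buds. In sterile J03 buds, they were 3814 and 3943 in small, 5082 and 5452 in middle, and 6032 and 6382 in large buds. Sterile J10 and sterile J03 did not overlap in PRK, and of the 6 fertile J10 replicates, 2 lay above and 2 below all fertile J03 replicates. By mean PRK signal, sterile J03 large buds were highest at 6207 ± 247 (SD, n = 2) and sterile J10 small buds lowest at 1836 ± 125, and the 3 sterile J10 groups were the 3 lowest. Between the third group, fertile J03 large buds, and the eleventh, sterile J10 middle buds, no neighbours in the order were separated beyond their replicates.

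PORB ran the other way between the lines. In fertile J10 buds, replicates 1 and 2 gave PORB signals of 4456 and 3892 in small, 3685 and 3247 in middle, and 3250.2 and 3573 in large buds. In sterile J10 buds, the PORB signals were 2429 and 2210.5 in small, 3438 and 2645 in middle, and 3016 and 2128 in large buds. Of the 6 sterile J10 replicates, 5 lay below all fertile J10 replicates. In fertile J03 buds, the PORB signals were 1611 and 1589 in small, 1353 and 1538 in middle, and 1673 and 1779 in large buds. In sterile J03 buds, they were 2035 and 1769 in small, 1303 and 1874 in middle, and 1801 and 1478 in large buds. All 12 J10 replicates lay above all 12 J03 replicates, with 2128 to 4456 against 1303 to 2035. The share of all tested probe sets that separated the lines in this way is not given here. The same holds for the separation of RCA and PRK in sterile buds, so how unusual these are is not shown. The 6 J10 groups filled the first 6 places of the PORB order. Fertile J10 small buds were highest at 4174 ± 399 (SD, n = 2) and fertile J03 middle buds lowest at 1445 ± 131. Within J03, no group was separated from its neighbour in the order.

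**Figure D1:**
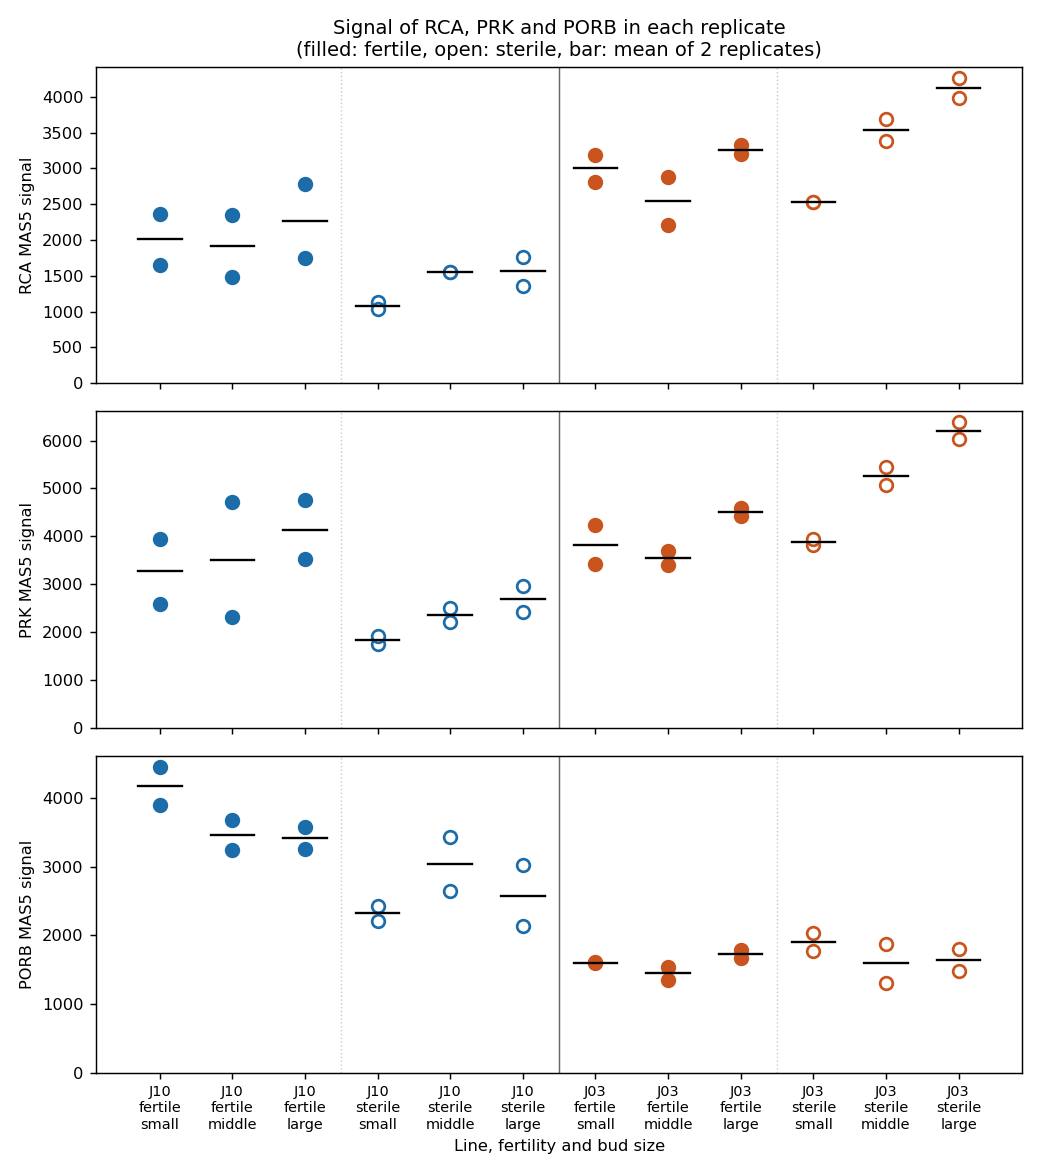
MAS5 signal (linear scale, from 0) of RCA, PRK and PORB in each replicate of the 12 groups, with J10 in blue, J03 in orange, fertile buds filled, sterile buds open, and a bar at the mean of the 2 replicates. RCA and PRK are lowest in the sterile J10 buds and highest in the sterile J03 large buds, and every PORB point of J10 lies above every PORB point of J03.

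The first comparison asked how the lines differed. Differences are given on the scale of log2(signal + 112.5), the offset being a low percentile of the arrays, and were called at a limma p adjusted over all tested probe sets below 0.05. Averaged over the 6 pairs of groups, RCA was lower in J10 by -0.85 (SE 0.09, adjusted p = 4.34e-07) and PRK by -0.64 (SE 0.10, adjusted p = 4.44e-05). PORB was higher by 0.87 (SE 0.08, adjusted p = 5.43e-08). These correspond to 1.81-fold and 1.56-fold lower and 1.83-fold higher on that scale. All 3 genes were thus called, against 2104 of the 14021 probe sets (15%), 7.42% called higher and 7.58% called lower. The RCA difference stood at the 0.756 percentile of all tested changes, that of PRK at the 1.99 percentile and that of PORB at the 99.4 percentile. Leaving out any of the 24 replicates kept these 3 calls, with RCA from -0.91 to -0.80, PRK from -0.73 to -0.56 and PORB from 0.83 to 0.91.

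**Figure D2:**
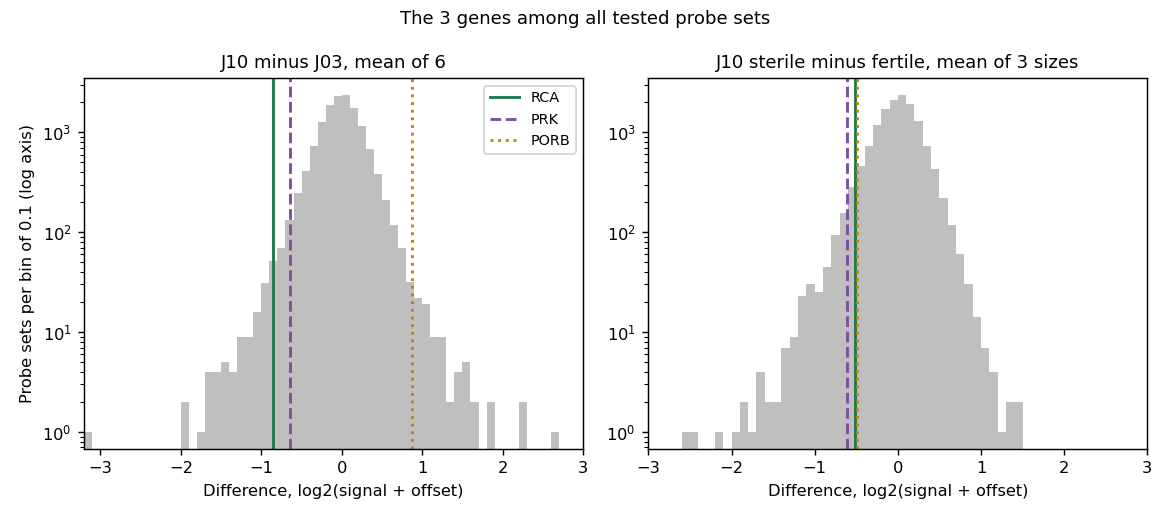
Number of tested probe sets (log axis) by their difference on the log2(signal + offset) scale, for J10 minus J03 averaged over 6 pairs of groups (left) and for sterile minus fertile in J10 averaged over 3 sizes (right), with a line at each of the 3 genes. RCA and PRK lie in the lower tail and PORB in the upper tail of the line difference, and all 3 lie close together in the lower tail of the J10 sterile difference.

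The line differences of RCA and PRK had larger values in sterile than in fertile buds, and that of PORB a smaller one. The test of that change, given with the sterile effect, passed for PRK and not for RCA or PORB. Averaged over sizes in sterile buds, J10 was below J03 by -1.21 (SE 0.13, adjusted p = 7.27e-07) for RCA and by -1.12 (SE 0.14, adjusted p = 5.46e-06) for PRK, and above it by 0.59 (SE 0.12, adjusted p = 0.00139) for PORB, where 10.5% of probe sets were called. In fertile buds, the differences were -0.50 (adjusted p = 0.0227) for RCA, -0.17 with 95% limits of -0.45 and 0.12 (adjusted p = 0.572) for PRK, and 1.15 (adjusted p = 8.91e-07) for PORB, with 5.11% of probe sets called. These averages within fertile or sterile buds were added after the data were seen. The fertile RCA call was lost without J10 fertile small, middle or large replicate 2, at -0.42, -0.39 and -0.39, and without J03 fertile small replicate 2, middle replicate 1 or large replicate 2, at -0.47, -0.44 and -0.48.

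At single sizes, RCA and PRK were called lower in sterile J10 buds at all 3. RCA differed by -1.14 in small, -1.15 in middle and -1.32 in large sterile buds (adjusted p = 0.00827, 0.00517 and 0.00109), and PRK by -1.04, -1.15 and -1.18 (adjusted p = 0.0255, 0.00944 and 0.00642). In these comparisons 1.25%, 2.39% and 2.65% of probe sets were called. PORB was called in sterile middle buds at 0.88 (adjusted p = 0.0177), while sterile small buds gave 0.28 and sterile large buds 0.59 (adjusted p = 0.625 and 0.126). In fertile buds PORB was called at every size, with 1.33 in small, 1.19 in middle and 0.95 in large buds (adjusted p = 0.00135, 0.00374 and 0.0266), where 0.392%, 0.571% and 0.563% of probe sets were called. RCA in fertile buds gave -0.57, -0.41 and -0.51, and PRK gave -0.27, -0.10 and -0.14, none of which passed. Leaving out any 1 of the 4 replicates compared ended the calls of RCA (-1.20 to -1.08) and PRK (-1.11 to -0.97) in sterile small buds and of PORB in fertile large buds (0.88 to 1.01).

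Other single-size calls rested on fewer replicates. RCA in sterile middle buds was lost without J03 replicate 2, at -1.10. PRK in sterile middle buds was lost without J10 replicate 2 and without either J03 replicate, at -1.05, -1.20 and -1.10. PRK in sterile large buds was lost without J10 replicate 1 and without J03 replicate 2, at -1.04 and -1.13. PORB in fertile middle buds was lost without J03 replicate 1, at 1.11, and in sterile middle buds without J10 replicate 1 or J03 replicate 1, at 0.67 and 0.61. RCA in sterile large buds and PORB in fertile small buds were called without each of their 4 replicates in turn.

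**Figure D3:**
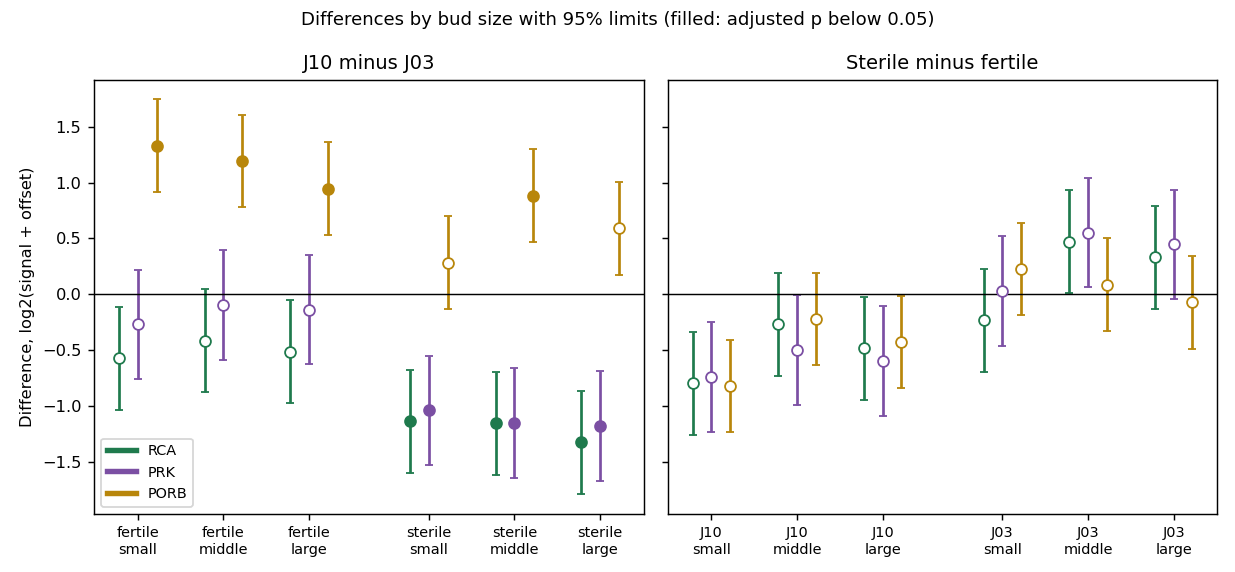
Differences of RCA, PRK and PORB on the log2(signal + offset) scale with 95% limits at each bud size, for J10 minus J03 in fertile and sterile buds (left) and for sterile minus fertile in J10 and J03 (right), with filled points at an adjusted p below 0.05. RCA and PRK are filled in the sterile buds on the left, PORB in the fertile buds and sterile middle buds, and no point is filled on the right.

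The second comparison asked what differed between sterile and fertile plants of 1 line. No gene of the 3 was called at any single size in either line. In J10, the sterile minus fertile differences were -0.80, -0.27 and -0.48 for RCA in small, middle and large buds, -0.74, -0.50 and -0.59 for PRK, and -0.82, -0.22 and -0.43 for PORB. All 9 were negative, in comparisons that called 0.107%, 0.571% and 2.43% of probe sets. The 3 genes were read on the same arrays, so the 9 are not separate observations. The share of probe sets negative at all 3 sizes is not given here. In J03, they were -0.23, 0.47 and 0.33 for RCA, 0.029, 0.55 and 0.45 for PRK, and 0.23, 0.09 and -0.07 for PORB. The J03 comparisons called 0.00713%, 0.0285% and 0.963% of probe sets.

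Averaged over the 3 sizes, the 3 genes were all called lower in sterile J10 buds. RCA fell by 0.52 (SE 0.13, adjusted p = 0.0244), PRK fell by 0.61 (SE 0.14, adjusted p = 0.0118) and PORB fell by 0.49 (SE 0.12, adjusted p = 0.0172), in a comparison with 3.47% of probe sets called and 2.57% called lower. In raw signal, fertile against sterile J10 buds had means of 2063 ± 505 and 1398 ± 278 (SD, n = 6) for RCA, 3642 ± 1030 and 2295 ± 434 for PRK, and 3684 ± 454 and 2644 ± 504 for PORB. Fertile and sterile replicates overlapped for each gene. In J03, the same averages were 0.19 with 95% limits of -0.08 and 0.46 for RCA, 0.34 with limits of 0.06 and 0.63 for PRK, and 0.08 with limits of -0.16 and 0.32 for PORB. None passed (adjusted p = 0.699, 0.379 and 0.893), and 0.62% of probe sets were called.

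These J10 calls were near the threshold. For RCA, the call was lost without sterile small replicate 2 (-0.50), sterile large replicate 1 (-0.46), or replicate 1 of fertile small (-0.44), middle (-0.41) or large buds (-0.41). For PRK, it was lost without sterile large replicate 1 (-0.57) or replicate 1 of fertile small (-0.52) or large buds (-0.54). For PORB, it was lost without replicate 2 of sterile small (-0.47), middle (-0.42) or large buds (-0.42), or replicate 1 of fertile small (-0.46) or middle buds (-0.46).

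The difference between the lines in the sterile effect was tested directly. Sterile and fertile plants differed at Rf in J10 and at Ms in J03. The line and the gene that differed therefore cannot be told apart in this test. Averaged over sizes, J10 sterile minus fertile less J03 sterile minus fertile was -0.95 for PRK (SE 0.19, adjusted p = 0.0249), where 0.464% of probe sets were called. It was -0.71 for RCA (SE 0.18, adjusted p = 0.0800) and -0.57 for PORB (SE 0.16, adjusted p = 0.111), neither of which passed. The average was added after the data were seen, and at single sizes none of the 3 genes was called, in comparisons that called 0%, 0.0285% and 0.0285% of probe sets. The PRK call was lost on leaving out any of 12 of the 24 replicates, at -0.97 to -0.86. Those 12 were, in J10, sterile small 1, middle 2 and large 1 and fertile small 1 and large 1, and, in J03, replicate 2 of sterile small, middle and large, fertile small 1, both fertile middle replicates and fertile large 1.

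The third comparison followed bud size. From small to large buds, averaged over both lines and both fertilities, RCA rose by 0.35 (SE 0.11, adjusted p = 0.0411) and PRK rose by 0.45 (SE 0.12, adjusted p = 0.0135), in a comparison with 11.1% of probe sets called and 5.34% called higher. PORB gave -0.07 with 95% limits of -0.28 and 0.14 (adjusted p = 0.762). The steps from small to middle buds gave 0.16 for RCA, 0.18 for PRK and -0.09 for PORB, and those from middle to large buds gave 0.19, 0.27 and 0.017. None of these steps passed, where 9.4% and 2.32% of probe sets were called. Leaving out any of 12 of the 16 replicates ended the RCA call, at 0.27 to 0.37. It remained without J10 sterile large 1, J10 fertile small 1, J10 fertile large 2 or J03 fertile small 2. The PRK call remained without each of the 16.

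Within 1 line and fertility, none of the 12 size changes of any of the 3 genes was called. They ran from -0.23 to 0.67 for RCA, from -0.10 to 0.66 for PRK and from -0.28 to 0.33 for PORB. RCA and PRK both had their highest value from small to large buds of sterile J03 plants. From small to middle buds, 1.55% of probe sets were called in fertile J10, 0.549% in sterile J10, 3.02% in fertile J03 and 2% in sterile J03. In the same order of groups, 1.13%, 0.0713%, 0.813% and 0.471% were called from middle to large buds, and 2.64%, 0.892%, 4.29% and 1.94% from small to large buds. At an unadjusted p below 0.05 there were 3 of the 12 for RCA, 2 for PRK and 0 for PORB, beside 6.45% to 14.8% of all tested probe sets in each of the 12 comparisons. The 4 tests of whether the change from small to large buds differed between lines or between fertilities were not passed by any of the 3, with a lowest adjusted p of 0.740 for RCA, 0.861 for PRK and 0.767 for PORB. Those tests called 0% and 0.0713% of probe sets between lines in fertile and sterile buds, and 0.606% and 0.364% between fertilities in J10 and J03.

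RCA and PRK followed each other closely. Over the 12 group means of log2 signal, their Pearson correlation was 0.96, and it was 0.97 over the 6 J10 groups and 0.95 over the 6 J03 groups. Over the 24 replicates it was 0.95. The points share arrays, so what moves a whole array moves both values. RCA and PORB had a correlation of -0.61 over the 12 groups, but 0.84 over the 6 J10 groups and -0.13 over the 6 J03 groups. The negative value over all groups thus joins 2 separate clusters, 1 per line.

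Ratios within an array leave out any scaling of the whole array. The log2 ratio of PORB to RCA ran from 0.22 to 1.19 in the 12 J10 replicates, with a median of 1.00, and from -1.47 to -0.30 in the 12 J03 replicates, with a median of -0.91. The lines did not overlap in it. For PORB to PRK, the ratio ran from -0.52 to 0.59 in J10 and from -2.05 to -0.89 in J03, again without overlap. PRK to RCA ran from 0.49 to 0.97 in J10 and from 0.24 to 0.71 in J03, and overlapped. These ratios were added after the data were seen, and only their difference between samples has a meaning. PORB alone already separated the lines, so its ratios are no further support. The share of other gene pairs that separate the lines is not given here.

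**Figure D4:**
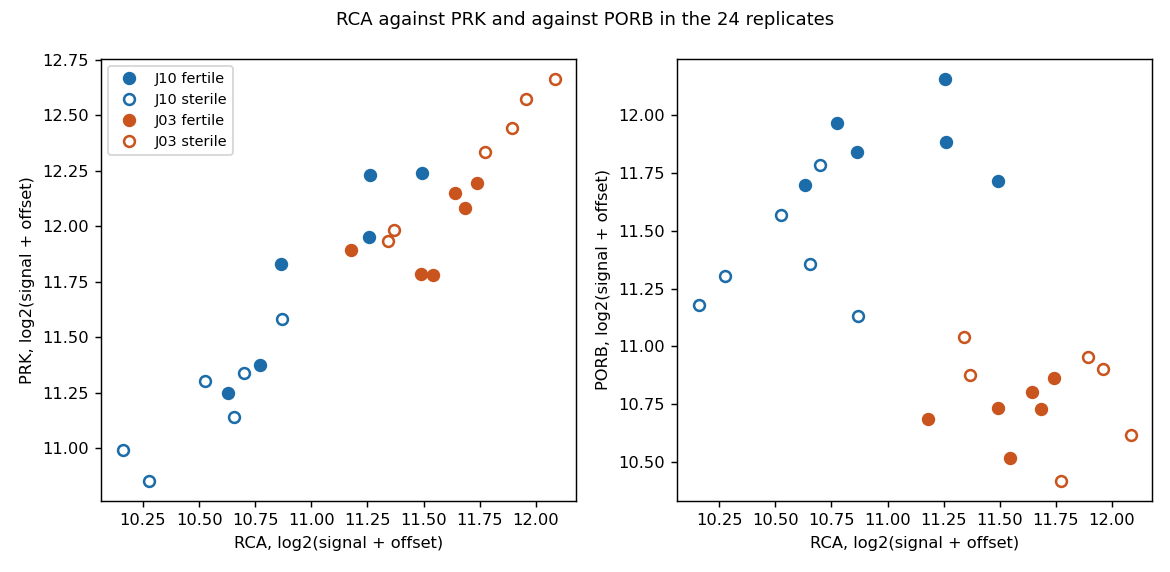
Log2(signal + offset) of RCA against PRK (left) and of RCA against PORB (right) in the 24 replicates, with J10 in blue, J03 in orange, fertile buds filled and sterile buds open. RCA and PRK lie along 1 rising band, with a correlation of 0.95, and the PORB panel shows J10 and J03 as 2 clusters that do not overlap on the PORB axis.

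Other genes with a like pattern were sought among 7841 tested probe sets with 1 named gene, by Pearson correlation over the 12 group means. AT1G63880 came first for RCA at 0.94 and for PRK at 0.95, but over the 24 replicates it ranked 79 and 106. The next for RCA were AT5G44680 at 0.91, AT5G55050 at 0.91, AT3G01620 at 0.90 and AT1G01230 at 0.90. For PRK they were AT4G22530 at 0.94, ATG8F, an autophagy protein, at 0.92, AT4G28780 at 0.92, and ATPC1, the gamma subunit of the chloroplast ATP synthase, at 0.91. Over the 24 replicates, ATPC1 ranked 2 for PRK, ATG8F 3, AT4G22530 19 and AT4G28780 339. For PORB they were AT4G21870 at 0.94, AT1G70820 at 0.93, AT3G51660 at 0.92, AT2G40760 at 0.91 and AT3G26070 at 0.91. Over the 24 replicates, AT3G51660 ranked 1 for PORB, AT1G70820 2, AT3G26070 7, AT4G21870 28 and AT2G40760 112. For RCA, AT5G44680 ranked 5, AT1G01230 38, AT3G01620 92 and AT5G55050 104 over the 24 replicates.

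The other nuclear photosynthesis and photorespiration genes were called in both directions between the lines, or not at all. Of the listed genes, 17 besides the 3 were named in the annotation and 16 were tested. PORA, PORC and the small subunits of Rubisco had no probe set with 1 named gene here. Between the lines, 3 of the 16 were called higher in J10 and 2 lower, beside 7.42% and 7.58% of all tested probe sets. Their median was 0.0038 beside -0.0067 over all tested. In fertile buds over sizes, 14 of the 16 were positive, with a median of 0.11 beside -0.017 over all tested. There 2 were called higher and 0 lower, beside 5.11% of all tested probe sets called. In sterile buds over sizes, 11 of the 16 were negative, with a median of -0.15 beside 0.0020. There 1 was called higher and 2 lower, beside 10.5% called. CHLM, a methyltransferase of chlorophyll synthesis upstream of PORB, was higher by 0.67 (adjusted p = 4.26e-05). PGK2, a phosphoglycerate kinase of the chloroplast, was higher by 0.34 (adjusted p = 0.0129), and PSBW, a small subunit of photosystem II, by 0.31 (adjusted p = 0.0111). SBPASE, the sedoheptulose bisphosphatase of the same cycle as PRK, differed by -0.30 (adjusted p = 0.0318), and ATPC1 by -0.34 (adjusted p = 0.0238). In fertile buds over sizes, SBPASE gave 0.11 and ATPC1 0.07, and neither was called.

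SBPASE and ATPC1 were also the 2 of 16 called lower in sterile than in fertile J10 buds, at -0.58 (adjusted p = 0.0139) and -0.53 (adjusted p = 0.0375). Of the 16, 13 had a negative value there, with a median of -0.10 beside 0.0059 over all tested probe sets. In J03, 12 of the 16 had a positive value of sterile minus fertile, with a median of 0.17 beside -0.0027, and none was called. For SBPASE, the line difference of the sterile effect was called at -0.81 (adjusted p = 0.0491), and ATPC1 gave -0.82 (adjusted p = 0.0625). From small to large buds, SBPASE rose by 0.36 (adjusted p = 0.0453) and was the only 1 of the 16 called. The light-harvesting genes LHCB4.2 and LHCB4.3 were tested and not called between the lines, at -0.08 and 0.07.

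**Figure D5:**
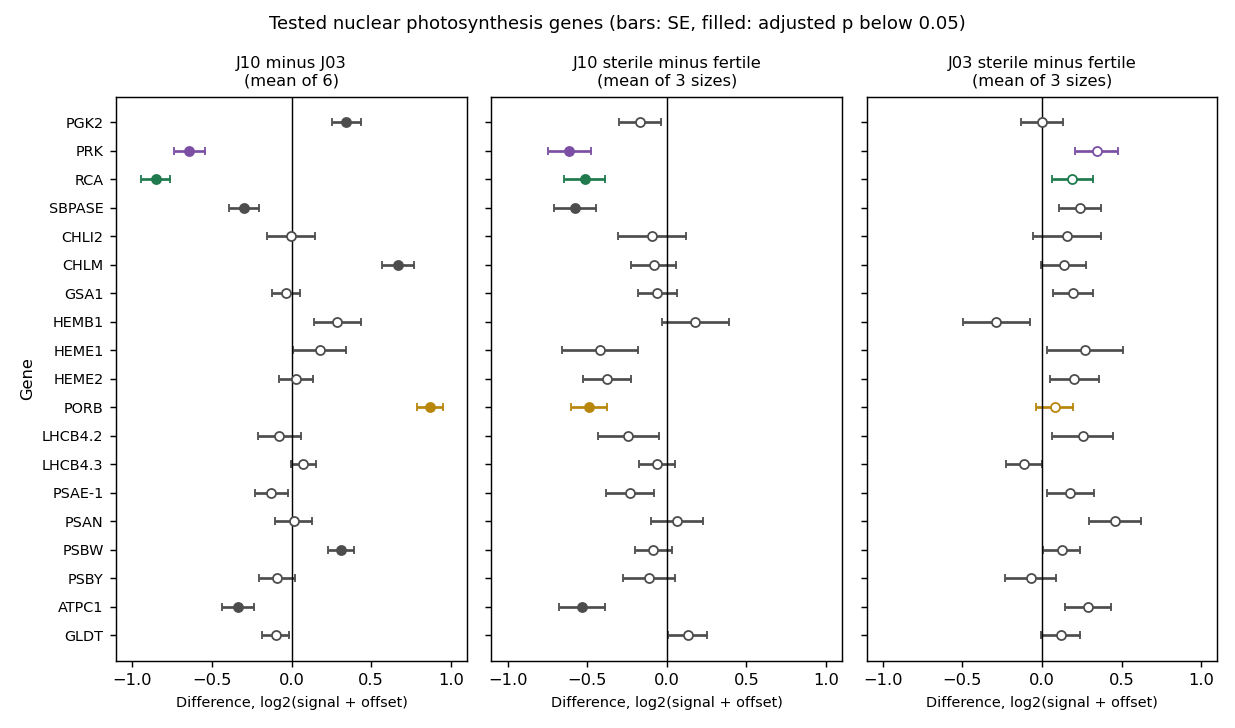
Differences in log2(signal + offset), with bars of 1 SE, for RCA, PRK, PORB and the 16 other tested nuclear genes of photosynthesis and photorespiration, for J10 minus J03 (left), J10 sterile minus fertile (middle) and J03 sterile minus fertile (right), filled at an adjusted p below 0.05. On the left, CHLM, PGK2 and PSBW are filled on the side of PORB, and SBPASE and ATPC1 on the side of RCA and PRK, and on the right no gene is filled.

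Between the lines, photosynthesis genes encoded in the plastid were called in the direction of PORB and not of RCA and PRK. Of 42 tested, 19 were called higher in J10 and 0 lower by limma, with a median difference of 0.46, and 41 had a positive value. Over all tested probe sets, 7.42% were called higher and the median was -0.0067. In sterile against fertile J10 buds, where RCA, PRK and PORB were all lower, 5 of the 42 were called higher and 0 lower by limma, with a median of 0.24, beside 0.906% of all tested probe sets called higher and a median of 0.0059. In J03 sterile against fertile buds, 1 of the 42 was called higher and 0 lower, with a median of 0.24 as well, beside 0.185% and a median of -0.0027.

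A control ratio used as a measure of RNA quality differed between the same groups. The log2 ratio of 3′ to 5′ probe sets of the actin, GAPDH and ubiquitin controls averaged -0.73 ± 0.35 in J10 and -1.21 ± 0.23 in J03 (SD, n = 12, permutation p = 0.00038, adjusted p = 0.0057 over the family of array measures). In J10 it was -0.49 ± 0.34 in sterile and -0.97 ± 0.11 in fertile buds (n = 6, exact permutation p = 0.0108, adjusted p = 0.0487). With this ratio as a covariate, J10 minus J03 over the 6 pairs was -0.86 for RCA (SE 0.24, adjusted p = 0.113). It was -0.43 for PRK (SE 0.25, adjusted p = 0.550) and 1.02 for PORB (SE 0.21, adjusted p = 0.0296). Without the covariate the values were -0.85, -0.64 and 0.87, with SEs of 0.09, 0.10 and 0.08. The RCA value thus stayed nearly the same while its SE grew. With the covariate, 98 probe sets were called in place of 2104. The averaged sterile minus fertile differences in J10 became -0.52 for RCA, -0.40 for PRK and -0.34 for PORB, and none passed (adjusted p = 0.697, 0.803 and 0.803). Their SEs were 0.26, 0.27 and 0.23 with the covariate, and 0.13, 0.14 and 0.12 without it.

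The GAPDH 3′ control was dim, below its array's median on 38 of 48 arrays. The mean ratio of all 3 controls was negative in both lines. That of actin and ubiquitin was positive in both, so the negative values came from GAPDH. Whether the ratio of all 3 read RNA quality here was not tested. With the actin and ubiquitin ratio alone, a choice made after the data were seen, the lines averaged 0.92 ± 0.14 in J10 and 0.79 ± 0.21 in J03 (permutation p = 0.116, adjusted p = 0.244). With that ratio as the covariate, J10 minus J03 was -0.85 for RCA (adjusted p = 4.01e-06), -0.64 for PRK (adjusted p = 0.000266) and 0.85 for PORB (adjusted p = 7.74e-07), with 1625 probe sets called. The averaged J10 sterile differences were then -0.51 for RCA, -0.61 for PRK and -0.51 for PORB (adjusted p = 0.0456, 0.0246 and 0.0234), and all remained called.

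Some anther markers moved in the same comparisons as RCA, PRK and PORB. Of 11 tapetum markers 3 were named and tested (A9, AMS and SHT), and of 10 pollen markers 5 (ACT12, ACT11, TET11, LAT52 and AGL65), with none at 0. SHT, a tapetum acyltransferase that makes spermidine conjugates of the pollen wall, was lower in J10 than in J03, with a log2 difference of -0.94 over the 6 pairs (adjusted p = 7.41e-05) and of -1.44 in sterile buds over sizes (adjusted p = 4.85e-05). The other 7 markers were not called between the lines in these averages, with values over the 6 pairs from -0.33 for LAT52 to 0.32 for ACT11. At single sizes, A9 was called higher in J10 in sterile large buds, by 1.55 (adjusted p = 0.00105). SHT was called lower in sterile middle buds at -3.14 (adjusted p = 1.05e-05), and LAT52 in fertile large buds at -1.93 (adjusted p = 0.0154). LAT52 was bright enough to be tested only through fertile J03 large buds, so that call is no separate support. In sterile against fertile J10 buds over sizes, SHT fell by 1.81 (adjusted p = 1.52e-05) and TET11, a tetraspanin of pollen, fell by 0.76 (adjusted p = 0.00974). The other 6 were not called there, with values from -0.40 for ACT12 to 0.26 for A9. At single sizes, A9 went opposite to SHT and was called higher in sterile J10 large buds, by 1.51 (adjusted p = 0.00118). SHT was called lower in sterile J10 middle and large buds, at -2.98 and -2.40 (adjusted p = 9.09e-05 and 0.000225). TET11 was called lower in sterile J10 large buds, at -1.48 (adjusted p = 0.00429). In J03 sterile against fertile buds over sizes, TET11 fell by 1.04 (adjusted p = 0.00251), and SHT gave -0.81 (adjusted p = 0.0843).

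From small to large buds, averaged over lines and fertilities, 6 of the 8 were called higher, by 0.50 for AMS to 3.79 for SHT on the log2 scale, beside 5.34% of all tested probe sets. Among those called, LAT52 and ACT12 were bright enough to be tested only through fertile large buds, and SHT only through middle and large buds. A rise to large buds was thus partly built into which markers were tested, and this count is no separate support. In fertile J10 buds the mean signal of SHT was 274 in small, 7330 in middle and 9173 in large buds, and in sterile J10 buds 296, 860 and 1834. That of A9 was 727, 6688 and 1617 in fertile J10 buds, and 663, 4406 and 4556 in sterile J10 buds. The summed signal over all sizes ran from 1685 to 8816 in sterile and from 1422 to 16228 in fertile J10 buds for the tapetum, and from 1420.1 to 2245 and from 1539.8 to 3853 for pollen. The part of these cells in the levels of RCA, PRK and PORB was not tested.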

How the data were processed

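The deposited intensity values were linear MAS5 signals, per the submitters' processing notes, which give no version. Each array had a 2% trimmed mean of 500.0 and a median between 339 and 410.1. The table held 22810 probe sets, 64 of them controls. Names came from the given annotation, with none from the 503 probe sets with several genes. A tech_rep array was taken as the second hybridisation of the replicate with its number. The labels do not state this. Same-numbered arrays correlated at a median of 0.82 against 0.80 for other pairs in J10, and at 0.80 for both in J03. Precision is limited by the number of arrays and, since repeat hybridisations were averaged, by the 2 replicates of each group.

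The deposited signals were turned into log2(signal + 112.5), with the typical 25th percentile of an array (its median over the arrays) as the offset, so folds understate changes of dim probe sets. A probe set was tested if 1 group or more had both replicates at or above the array median. One linear model of the 12 groups was fitted in limma 3.58.1 (R 4.3.3) with an intensity trend, leaving 12 residual degrees of freedom, and all adjusted p-values of differences are its, by Benjamini-Hochberg within each of 40 comparisons. Array measures were compared by 2-sided permutation tests with 100000 resamples, exact where n was below 10. The fit was checked on simulated data. Figures were drawn with matplotlib 3.10.9.

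The 3 genes, 191 listed genes (71 named) and tests were chosen with earlier results of these data known. Besides the 3, up to 4 called members of each list, PORA, PORC, RBCS and LHCB genes where present, and the 5 most alike genes of each of the 3 were named. Alternatives changed the offset, scaling, filter, hybridisations, replicate block, groups fitted, intensity trend and covariates, and left out arrays or replicates.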

Additional observations from a re-analysis of the deposited data

Results flagged for a closer look

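Among the 4 arrays of each group, 3 of 36 sets of signals of the 3 genes held an array far from the others, all for PORB; chance gives about 1 in 20. In fertile J10 large buds, the first hybridisation of replicate 2 read 3988.4, and the others 3158 to 3295. In sterile J10 large buds, the first hybridisation of replicate 1 read 3768.5, and the others 2127 to 2264. In sterile J03 large buds, the second hybridisation of replicate 2 read 1219, and the others 1738 to 1826. In each case the other hybridisation of the same replicate lay with the rest of its group.

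The sterile minus fertile difference of PRK, averaged over sizes, differed between the lines by -0.95 in a direct test of that difference (limma adjusted p = 0.0249). It was -0.61 in J10, where the plants differed at Rf, and 0.34 in J03, where they differed at Ms. The direct test of the average was added after the data were seen. Its call held under 9 of 14 alternatives and was lost on leaving out any of 12 of the 24 replicates.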

How the results depend on the processing

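Under 14 alternatives and with each replicate left out, the J10 minus J03 differences over 6 pairs kept their direction for all 3 genes. PORB kept its call throughout, and RCA and PRK in 13 of the 14. With 2 replicates a group, most single-size and sterile minus fertile calls lay near the threshold. Apart from the covariates, whose values stand in the report, the causes were not tested. Under the covariate of 3 control transcripts (3′ to 5′ ratio), which took the calls over all probe sets between the lines from 2104 to 98, these were no longer called. Over 6 pairs, J10 minus J03 gave RCA -0.86 (SE 0.24, and 0.09 without the covariate) and PRK -0.43 (SE 0.25, and 0.10 without it). Over sizes in sterile buds it gave RCA -1.22, PRK -0.76 and PORB 0.84, and in fertile buds RCA -0.50. In sterile small buds it gave RCA -1.15 and PRK -0.77, in middle buds RCA -1.17, PRK -0.77 and PORB 1.15, in large buds RCA -1.34 and PRK -0.74, and in fertile large buds PORB 1.08. Sterile minus fertile in J10 over sizes gave RCA -0.52, PRK -0.40 and PORB -0.34, its line difference gave PRK -0.66, and large minus small gave RCA 0.35. Signs turned for PRK (-0.21) and PORB sterile minus fertile in J03 (-0.0060 middle, 0.012 large) and for PRK in J10 minus J03 of fertile large buds (0.056). With the actin and ubiquitin ratio, RCA large minus small (0.36) and PRK in sterile small buds (-1.03) were lost, and PORB large minus middle turned to -0.016. With first hybridisations only, calls were lost for J10 sterile minus fertile over sizes (RCA -0.49, PRK -0.50, PORB -0.33), its PRK line difference (-0.88), and RCA large minus small (0.39). J10 minus J03 was lost in sterile middle buds (RCA -1.01, PRK -0.78) and for PORB in fertile small (1.33), middle (0.95) and large buds (0.90). Signs turned for PRK in fertile large buds (0.022) and for PORB sterile minus fertile in middle buds of J10 (0.10) and J03 (-0.14) and their difference (0.24). With second hybridisations only, calls were lost for J10 sterile minus fertile over sizes (RCA -0.55, PRK -0.73), its PRK line difference (-1.03), and large minus small (RCA 0.32, PRK 0.40). J10 minus J03 was lost in sterile small (RCA -0.93, PRK -1.04) and large buds (RCA -0.9996, PRK -1.10), for RCA in fertile buds over sizes (-0.34), and for PORB in fertile large (0.99), sterile middle (0.58) and sterile buds over sizes (0.49). Signs turned for PRK sterile minus fertile in J03 small buds (-0.018) and PORB middle minus small (0.041) and large minus middle (-0.13). Without the intensity trend, and in part with only the compared groups fitted, calls were lost at the values of the report. Without the trend these were J10 sterile minus fertile over sizes (RCA -0.52, PRK -0.61, PORB -0.49), its PRK line difference (-0.95), RCA large minus small (0.35), and J10 minus J03 in sterile small buds (RCA -1.14, PRK -1.04), in fertile buds over sizes (RCA -0.50), and for PORB in fertile large (0.95) and sterile middle buds (0.88). With only the compared groups they were the same J10 sterile differences, the same fertile RCA average and the same PORB calls. Quantile normalization lost the PRK line difference (-0.71), turned PRK in J03 small buds to -0.19, and called 1 size change of PRK. Median centring (0.34) and no filter (0.35) lost RCA large minus small. With all 48 arrays, the RCA line difference (-0.71) and PORB in J10 sterile minus fertile small buds (-0.82) were called. Without the array least like its group, sterile J10 middle buds replicate 2, PORB sterile minus fertile there turned to 0.0096 and large minus middle to -0.041. With a replicate block within each line, the line difference of the sterile effect was also called for RCA (-0.71) and PORB (-0.57), and no other call changed. Same-numbered replicates deviated together in J10 (correlations of 0.09 to 0.29) and not in J03 (-0.04 to 0.08), and 2 numbers do not settle a pairing. With single replicates left out, RCA ranged from -0.59 to 0.046 in J10 sterile minus fertile middle buds, -0.62 to -0.41 over sizes, and -0.81 to -0.60 for its line difference (called without 3 of 24). J10 minus J03 of RCA ranged from -1.20 to -1.08 in sterile small, -1.21 to -1.10 in sterile middle and -0.60 to -0.39 in fertile buds over sizes, and large minus small from 0.27 to 0.43. PRK sterile minus fertile ranged from -0.12 to 0.18 in J03 small buds, -0.78 to -0.45 in J10 over sizes and -1.12 to -0.79 for the line difference. J10 minus J03 of PRK ranged from -0.55 to 0.018, -0.59 to 0.39 and -0.34 to 0.068 in fertile small, middle and large buds. In sterile buds it ranged from -1.11 to -0.97, -1.25 to -1.05 and -1.32 to -1.04, and PRK large minus middle from 0.14 to 0.39 (called without 1 of 16). PORB sterile minus fertile ranged from -0.18 to 0.35 in J03 middle, -0.22 to 0.070 in J03 large and -0.0088 to 0.17 in J03 over sizes, -0.56 to -0.42 in J10 over sizes and -0.66 to -0.48 for the line difference (called without 1 of 24). J10 minus J03 of PORB ranged from 1.099 to 1.28 in fertile middle, 0.88 to 1.01 in fertile large and 0.61 to 1.15 in sterile middle buds, and large minus middle from -0.050 to 0.084. Of the other photosynthesis genes, the 2 called lower in sterile J10 buds became 1 with quantile normalization or without the filter, and the 1 called from small to large buds became 0 without the filter.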
